A study of Homo sapiens with 6 samples.

Results

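Transcripts of 42 genes of cell adhesion were measured by RNA sequencing in T24, an established human cell line grown from a bladder carcinoma. The genes, chosen by name out of 58233 Ensembl genes in the tables, comprise 12 integrin alpha and 8 integrin beta subunits, 5 genes of focal adhesion kinase and Src signalling and 10 linkers between integrins and actin. The remaining members are 3 caveolar genes, the tetraspanins CD9 and CD151, the hyaluronan receptor CD44 and the cell adhesion molecule L1CAM. The 2 groups were cells stably transduced by lentivirus with the empty vector (VEC, 3 libraries) and cells transduced in the same way with RhoC carrying the constitutively active mutation Q63E (3 libraries), both under puromycin selection. RhoC is a small GTPase that controls the actin cytoskeleton. All lines derive from T24, and the labels do not say whether the 3 libraries of a group came from separate cultures, so the p-values rest on library-to-library spread alone, part or all of which may be technical.

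Integrins are receptors for the extracellular matrix made of 1 alpha and 1 beta chain. The beta 1 chain pairs with many alpha chains, whereas alpha 6 is the partner of beta 4 in hemidesmosomes and alpha V pairs with several beta chains. When talin and kindlin bind the cytoplasmic tail of the beta chain, the receptor is activated and linked to actin, and focal adhesion kinase, Src, paxillin and p130Cas (BCAR1) assemble on it. Tetraspanins organise integrins in the membrane, caveolins and cavins form the coat of caveolae, and CD44 and L1CAM are adhesion receptors of other families that are widely expressed on carcinoma cells.

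Values are given as deposited and are taken as FPKM, fragments scaled by transcript length and by library size, a level that allows genes to be set beside each other. Summed values per library ran from 726929 to 769026. Log2 values of the tested genes correlated at r = 0.968 to 0.976 across genes within a group and at 0.953 to 0.958 between groups. RHOC, the transduced gene, had values of 218 to 232 in VEC and of 1726 to 1770 in Q63E. The keratins KRT7, KRT8 and KRT18, which mark simple epithelia, were at 507 or more in every library. They belong to 12 epithelial and urothelial markers, of which only 5 had a mean of at least 1. CDH1, KRT5 and UPK3A were listed at 0 in all 6, and KRT20, UPK1B and UPK2 had no value above 0.16. EPCAM was at 0.313 ± 0.0404 in VEC and 1.52 ± 0.202 in Q63E, and GATA3 at 1.79 ± 1.4 and 0.363 ± 0.352. The summed level of those 12 markers was 2120 to 2160 in VEC and 3350 to 3450 in Q63E, with KRT19 going from 5.67 ± 0.393 to 161 ± 1.85 (SD, n = 3), and its part in the adhesion results was not tested. The 5 fibroblast markers summed to at most 0.41 and the 5 endothelial markers to at most 0.24. Of 8 leukocyte markers, PTPRC and CD3E were listed at 0 throughout, and CD68 alone, which also occurs in lysosomes of other cells, was above 1 on average. In such bulk libraries fewer cells of a type and less RNA per cell cannot be told apart.

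Of the 42 genes, 33 had a mean value of at least 1 over the 6 libraries and were tested with limma, and 14 of them passed an adjusted p of 0.05 (Benjamini-Hochberg over all 13346 genes tested). Over all tested genes 25.3% passed, 11.3% higher and 14% lower in Q63E. Among the adhesion genes 5 were higher and 9 lower, and their median log2 fold change was −0.07, against −0.002 over all tested genes. Of the 33, 24 had groups that did not overlap, as did 43.9% of all tested genes. Of the 33 genes, 15 lay in the top 10% of tested genes by level. The higher genes were L1CAM, ITGA7, SRC, PARVA and CD9, and the lower ones ITGA2, ITGA5, ITGB1, BCAR1, FERMT2, PARVB, TNS1, TNS3 and CD44.

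**Figure D1:**
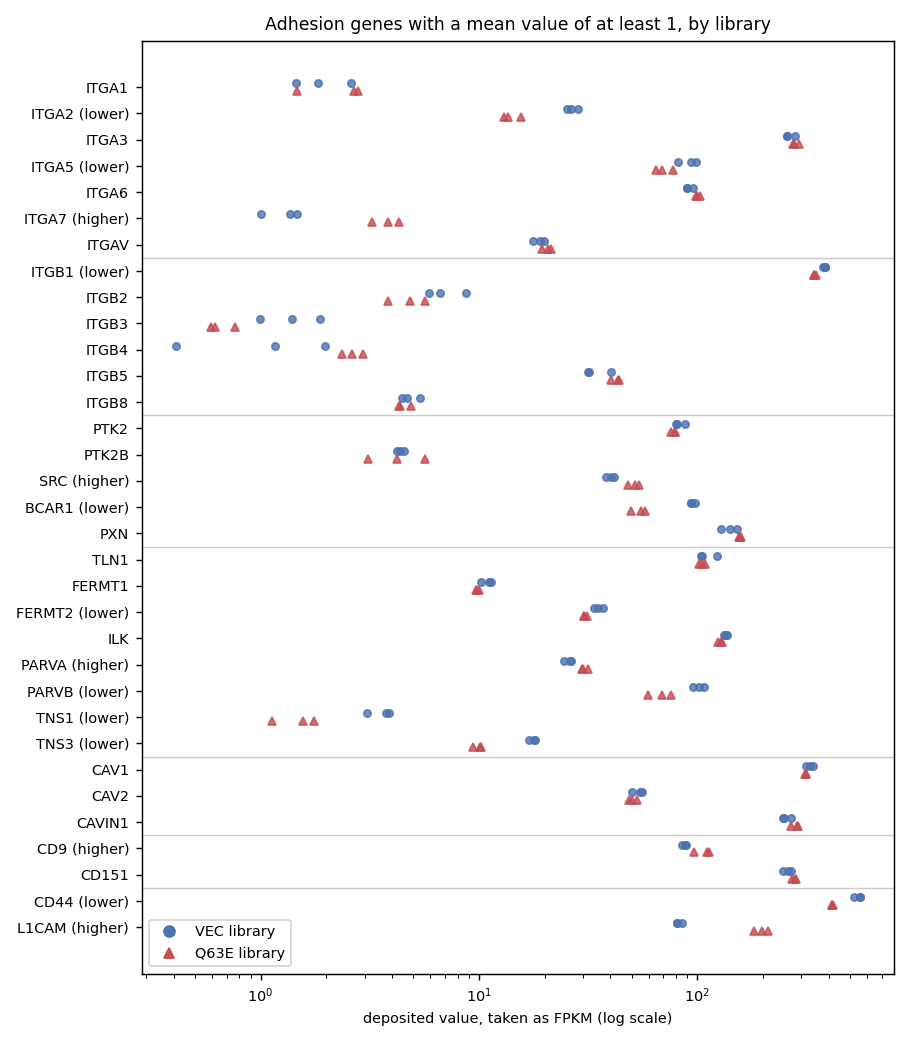
Deposited values (taken as FPKM, log axis) of the 33 adhesion genes with a mean of at least 1 in each of the 3 VEC (circles) and 3 Q63E (triangles) libraries, with grey lines between functional groups and the call in brackets. L1CAM lay at 80.7 to 84.7 in VEC and at 183 to 210 in Q63E, and CD44 at 524 to 557 and at 414 to 420.

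Log2 fold changes are Q63E minus VEC, taken after 1 was added to each value, which understates the change of genes with low values. L1CAM, a neural adhesion molecule of the immunoglobulin family that binds itself and integrins, rose in all Q63E libraries. Its values were 84.7, 80.72 and 80.67 in VEC and 198.95, 210.02 and 182.54 in Q63E. The groups were far apart. The level went from 82 ± 2.31 to 197 ± 13.8 (SD, n = 3), a 2.40-fold difference of the means, with a log2 fold change of 1.25 (SE 0.0569, limma adjusted p = 6.9e-05). The gene is on chromosome X from 153861514 to 153886174, minus strand of GRCh38. In Q63E it ranked above most integrin subunits, with only ITGA3 and ITGB1 of the 20 at higher levels. Its close relatives CHL1, NRCAM and NFASC were at or near 0: CHL1 was listed at 0 in all 6 libraries, and NRCAM lay between 0.18 and 0.33.

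CD44, the main receptor for hyaluronan, had the highest level of the 42 genes and fell. Its values were 523.53, 554.42 and 557.41 in VEC and 414.33, 419.96 and 415.59 in Q63E, so the groups were well apart. The means were 545 ± 18.8 and 417 ± 2.95 (SD, n = 3), with a log2 fold change of −0.39 (SE 0.0348, limma adjusted p = 0.000709). The gene lies on chromosome 11 from 35138870 to 35232402. Its level placed it at rank 208 of the tested genes. The values are sums over all isoforms of a gene, so the alternatively spliced variants of CD44 are not told apart.

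Among the alpha subunits, ITGA3 (a laminin receptor chain) was the most abundant, with 257.81, 281.4 and 258.36 in VEC and 292.18, 275.89 and 273.48 in Q63E. The groups overlapped, and it did not pass (log2 fold change 0.08, adjusted p = 0.286 in limma). ITGA3 held 53.4% ± 1.99 of the summed alpha values in VEC and 57.0% ± 0.268 in Q63E (SD, n = 3). The next were ITGA6 (laminin) at 91.6 ± 3.64 and 100 ± 1.93, and ITGA5 (fibronectin), with ITGA2 (collagen) and ITGAV below them. ITGAV, at 18.8 ± 1.03 and 20.5 ± 0.915, was under ITGA2 in VEC and above it in Q63E (ITGA2 at 26.6 ± 1.59 and 14.1 ± 1.35). In VEC, ITGA5 and ITGA6 did not differ beyond their spread. ITGA6 and ITGAV did not pass (limma adjusted p = 0.0587 and 0.221), but ITGA6, whose groups did not overlap, passed without VEC replicate 2 (0.0365).

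ITGA2, the alpha chain of the collagen receptor, fell. It had 26.28, 25.22 and 28.34 in VEC and 13.58, 15.62 and 13.08 in Q63E, with no overlap. The log2 fold change was −0.87 (SE 0.0813, limma adjusted p = 0.000784), or 1.89-fold lower. Its share of the summed alpha values went from 5.35% ± 0.356 to 2.87% ± 0.321. ITGA5, the alpha chain of the classical fibronectin receptor, fell by less. Its values were 94.01, 81.87 and 98.29 in VEC and 77.4, 64.41 and 68.68 in Q63E, so the groups were apart by less than the range within either. The log2 fold change was −0.38 (SE 0.0911, limma adjusted p = 0.0266). This call was lost without VEC replicate 1 or 3, without Q63E replicate 2 or 3, and with no filter on low values (highest adjusted p over all alternatives 0.0832).

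The stretches just upstream of these 2 fallen alpha chains are shown so that their promoter sequence can be read beside the values, and they end where annotated exons begin. Capitals mark matches to GGGCGG on either strand.
ITGA2: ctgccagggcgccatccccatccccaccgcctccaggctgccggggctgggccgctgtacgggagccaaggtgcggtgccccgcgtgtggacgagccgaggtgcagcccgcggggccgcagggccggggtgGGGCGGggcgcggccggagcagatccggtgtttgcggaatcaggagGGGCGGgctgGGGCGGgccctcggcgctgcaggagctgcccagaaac
ITGA5: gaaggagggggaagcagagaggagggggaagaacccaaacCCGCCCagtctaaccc
The ITGA2 stretch is chr5:52989102-52989325, plus strand, and the ITGA5 stretch is chr12:54419461-54419516, minus strand, both from RefSeq on GRCh38.p14 and written 5′ to 3′ along the gene. Of the 42 genes, 28 matched the table, with 52 windows. Windows of a gene can overlap, as for CAV1 and L1CAM, so they are not separate observations. The 28 include ITGA4 and ITGA8, listed at 0 in all libraries, while ITGA3 and SRC had no window. The first 250 bases of each window were searched on both strands, without trimming at annotated exons. They can thus include transcribed sequence, and the L1CAM windows lie inside its annotated locus. The ITGA2 window held 4 matches to GGGCGG, against 3 in the stretch shown. GGGCGG (the GC box) occurred in 59.6% of the 52 windows of these genes and in 42.6% of all 35116 windows. TGANTCA (AP-1) occurred in 1.9% and 6.6%, GGAATG (TEAD) in 11.5% and 11.9%, and the CArG box in 1.9% and 1.2%. These matches are letters in a window and were not tested for use.

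ITGA7, a laminin receptor chain best known from muscle, rose at a low level. It had 1, 1.47 and 1.37 in VEC and 4.30, 3.25 and 3.84 in Q63E. All Q63E libraries were above all VEC libraries, with a log2 fold change of 1.07 (SE 0.15, limma adjusted p = 0.00358) and a 2.97-fold ratio of the means. Even so it held 0.770% ± 0.0867 of the summed alpha values in Q63E. The gene overlaps BLOC1S1 on the other strand, which had 49.3 ± 0.611 in VEC and 49.2 ± 4.14 in Q63E. How reads were assigned by strand is not stated, so reads of such pairs may be shared. ITGA1, a collagen receptor chain that holds PELO inside its locus, had 1.96 ± 0.576 and 2.31 ± 0.732 and did not pass (adjusted p = 0.664). The other 5 alpha chains were under the minimum: ITGA4 and ITGA8 were listed at 0 in all 6 libraries, and ITGA9, ITGA10 and ITGA11 had no value above 0.45.

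ITGB1, the shared beta chain, made up most of the beta transcripts. Its values were 382.68, 386.6 and 375.07 in VEC and 342.25, 349.47 and 341.5 in Q63E. The groups did not overlap but were close, with a log2 fold change of −0.15 (SE 0.0293, limma adjusted p = 0.0136). The call was lost without a variance trend and with the replicate number as a block. ITGB1 lies on chromosome 10 from 32900319 to 33005792, and the 24 tested genes within 5 Mb of it had a median log2 fold change of −0.39, lower than its own. After subtraction of the neighbours' median in each library, ITGB1 was higher in Q63E, by 0.30 (adjusted p = 0.00205). Its direction thus depends on the reference: it was lower than in VEC as deposited, and higher relative to its neighbours. ITGB1 accounted for 88.5% ± 0.677 of the summed beta values in VEC and 86.2% ± 0.488 in Q63E (p = 0.1 in a two-sided exact permutation test, the lowest value 6 libraries in 2 groups of 3 can give).

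The other beta chains were far lower and none passed. ITGB5, a partner of alpha V in vitronectin receptors, was second, with 40.33, 31.66 and 31.87 in VEC and 40.28, 43.34 and 43.79 in Q63E. VEC replicate 1 lay within the Q63E range, and the adjusted p was 0.0735 (log2 fold change 0.30), or 0.00887 without that library. ITGB2, the leukocyte chain, had 7.07 ± 1.46 and 4.77 ± 0.921 (adjusted p = 0.0881) on chromosome 21, where the 51 neighbouring genes had a median of −0.32. The leukocyte marker sum was 17.9 to 19.9 in VEC and 9.77 to 11.4 in Q63E, almost all of it CD68, and its part in the ITGB2 values was not tested. ITGB8, an alpha V partner that binds latent TGF-beta, had 4.84 ± 0.499 and 4.52 ± 0.298 (adjusted p = 0.615).

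ITGB4, the partner of alpha 6 in hemidesmosomes, had 0.41, 1.16 and 1.98 in VEC and 2.62, 2.36 and 2.93 in Q63E. The groups were apart, but the VEC libraries varied widely, and ITGB4 did not pass (log2 fold change 0.80, SE 0.278, limma adjusted p = 0.0817). Without VEC replicate 3 the adjusted p was 0.0323. ITGB4 stood to ITGA6 as 0.0129 ± 0.00877 in VEC, against 0.0263 ± 0.00304 in Q63E (mean ratio with SD, n = 3, exact two-sided permutation p = 0.1), so alpha 6 transcripts were in large excess in both groups. ITGB4 overlaps GALK1 on the other strand (20.3 ± 1.41 and 22.3 ± 1.48). ITGB3, the beta chain of the classical vitronectin receptor, had 1.42 ± 0.445 and 0.657 ± 0.0907, and reached the minimum only through the VEC libraries (adjusted p = 0.0933). Without the variance trend ITGB3 passed (limma adjusted p = 0.0467). It overlaps AC068234.1 on the same strand, which had a mean of 4.66 and whose part in the ITGB3 values was not tested. ITGB6 and ITGB7 were under the minimum, with no value above 0.68.

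**Figure D2:**
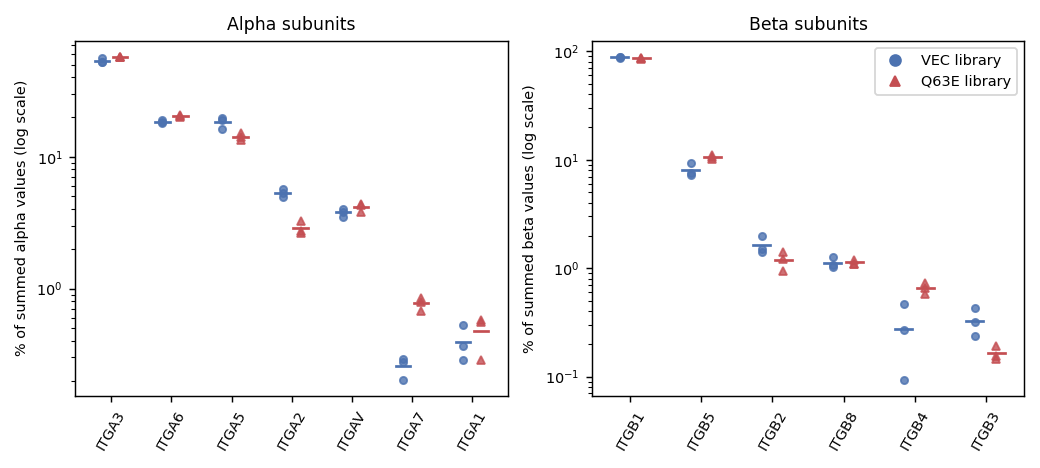
Share of each integrin subunit in the summed alpha (left) or beta (right) values of a library, in percent on a log axis, for subunits with a mean share of at least 0.15%. Points are libraries (circles VEC, triangles Q63E) and bars are group means. ITGA3 and ITGB1 held the largest shares in both groups, and the ITGA2 share was 5.35% in VEC and 2.87% in Q63E.

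Of the signalling genes, BCAR1 (p130Cas), a scaffold phosphorylated by Src at adhesions, fell. Its values were 93.19, 93.68 and 97.79 in VEC and 55.24, 49.86 and 57.4 in Q63E. All Q63E libraries were well below all VEC libraries (1.75-fold lower, log2 fold change −0.80, SE 0.0587, limma adjusted p = 0.000363). SRC, the kinase that phosphorylates it, rose from 38.19, 41.67 and 40.47 to 51.67, 54.19 and 48.21, with no overlap (log2 fold change 0.35, SE 0.0584, adjusted p = 0.00707). PTK2, which encodes focal adhesion kinase, had 87.9, 80.8 and 80.17 in VEC and 75.41, 78.84 and 79.06 in Q63E. The groups lay next to each other and PTK2 did not pass (log2 fold change −0.09, adjusted p = 0.218). Its paralog PTK2B was at 4.37 ± 0.152 and 4.33 ± 1.27 (adjusted p = 0.902). PXN (paxillin) had 140 ± 11.9 and 157 ± 2.30 and did not pass (adjusted p = 0.107), though it did without VEC replicate 2 (0.0393).

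The linkers to actin held 4 falls and 1 rise among 8 tested genes, where 14% of all tested genes were lower and 11.3% higher. Of these 5 calls, those of TNS1 and TNS3 held under every alternative. Tensins bind integrin tails and actin, and both tensins of the set with measurable levels fell. TNS3 had 17.85, 16.9 and 18.06 in VEC and 9.41, 10.18 and 10.14 in Q63E (1.78-fold lower, log2 fold change −0.77, SE 0.0616, limma adjusted p = 0.00047). TNS1 had 3.88, 3.76 and 3.06 in VEC and 1.76, 1.13 and 1.57 in Q63E (log2 fold change −0.88, SE 0.153, adjusted p = 0.0081). Neither overlapped between groups. TNS4 was listed at or near 0, with a highest value of 0.12. TNS2, a tensin outside the set, fell from 7.17 ± 1.06 to 4.01 ± 0.505 (adjusted p = 0.0108).

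Parvins connect integrin-linked kinase to actin, and the pair moved in opposite directions. PARVA had 26.42, 24.47 and 26.17 in VEC and 29.5, 29.86 and 31.53 in Q63E (log2 fold change 0.23, SE 0.0525, limma adjusted p = 0.0216). PARVB had 107, 95.62 and 101.57 in VEC and 75.88, 68.62 and 59.41 in Q63E (log2 fold change −0.58, SE 0.0921, adjusted p = 0.00596). Both were free of overlap between groups. The call of PARVA was lost in 4 of the 6 fits without 1 library (those without VEC replicate 2 or 3 or Q63E replicate 2 or 3) and with the replicate block. PARVB lies on chromosome 22, where 88 neighbouring genes had a median of −0.45; with their median subtracted its log2 fold change was −0.09 (adjusted p = 0.552). SAMM50, whose annotated locus overlaps that of PARVB on the same strand, went from 54.3 ± 2.33 to 36.1 ± 0.919, and its part in the PARVB value was not tested. ILK itself had 135 ± 2.57 and 128 ± 3.05 and did not pass (adjusted p = 0.143); it overlaps TAF10, which rose from 54.3 ± 4.83 to 66.3 ± 2.55.

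Kindlins and talins activate integrins. FERMT2 (kindlin-2) had 33.71, 35.16 and 36.87 in VEC and 30.24, 30.42 and 31.25 in Q63E. The groups were narrowly apart (log2 fold change −0.20, SE 0.0485, limma adjusted p = 0.0289), and the call held in 1 of the 6 fits that left out 1 library, the one without VEC replicate 1. It was also lost on the TPM scale, without the variance trend and with the replicate block (adjusted p = 0.0818, 0.053 and 0.0654). FERMT1 (kindlin-1) had 10.9 ± 0.554 and 9.87 ± 0.136 (adjusted p = 0.201). TLN1 (talin-1) had 111 ± 10.9 and 105 ± 3.39 (adjusted p = 0.501), on a part of chromosome 9 where 86 neighbours had a median of −0.33. TLN1 overlaps CREB3 on the other strand, which fell from 42.5 ± 2.53 to 33.9 ± 1.98. The part of CREB3 in the TLN1 values was not tested. TLN2 was at 0.897 ± 0.193 and 0.82 ± 0.17, under the minimum.

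None of the 3 caveolar genes passed. CAV1, the main coat protein of caveolae, had 313.69, 328.68 and 337.83 in VEC and 315.29, 315.4 and 310.19 in Q63E. The groups overlapped (log2 fold change −0.06, SE 0.0365, limma adjusted p = 0.292). CAV2 had 53.7 ± 2.94 and 50.8 ± 2.01 (adjusted p = 0.343). CAVIN1, needed for the coat to form, had 255 ± 11 and 282 ± 11.9 (adjusted p = 0.07). The ratio of CAV1 to CAVIN1 was 1.28 ± 0.0625 in VEC and 1.11 ± 0.0551 in Q63E, without overlap (SD, n = 3, exact two-sided permutation p = 0.1).

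Of the tetraspanins, CD9 rose from 89.26, 88.25 and 85.41 to 97.05, 113 and 110.61. The lowest Q63E library was above the highest VEC library (log2 fold change 0.28, SE 0.0627, limma adjusted p = 0.0202), but the call held in 1 of the 6 fits that left out 1 library, the one without Q63E replicate 1, and was lost with the replicate block. CD151, the partner of laminin-binding integrins, had 259 ± 10.1 and 278 ± 6.08 and did not pass (adjusted p = 0.1). It overlaps POLR2L, which was at 220 ± 12 and 203 ± 13.6.

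**Figure D3:**
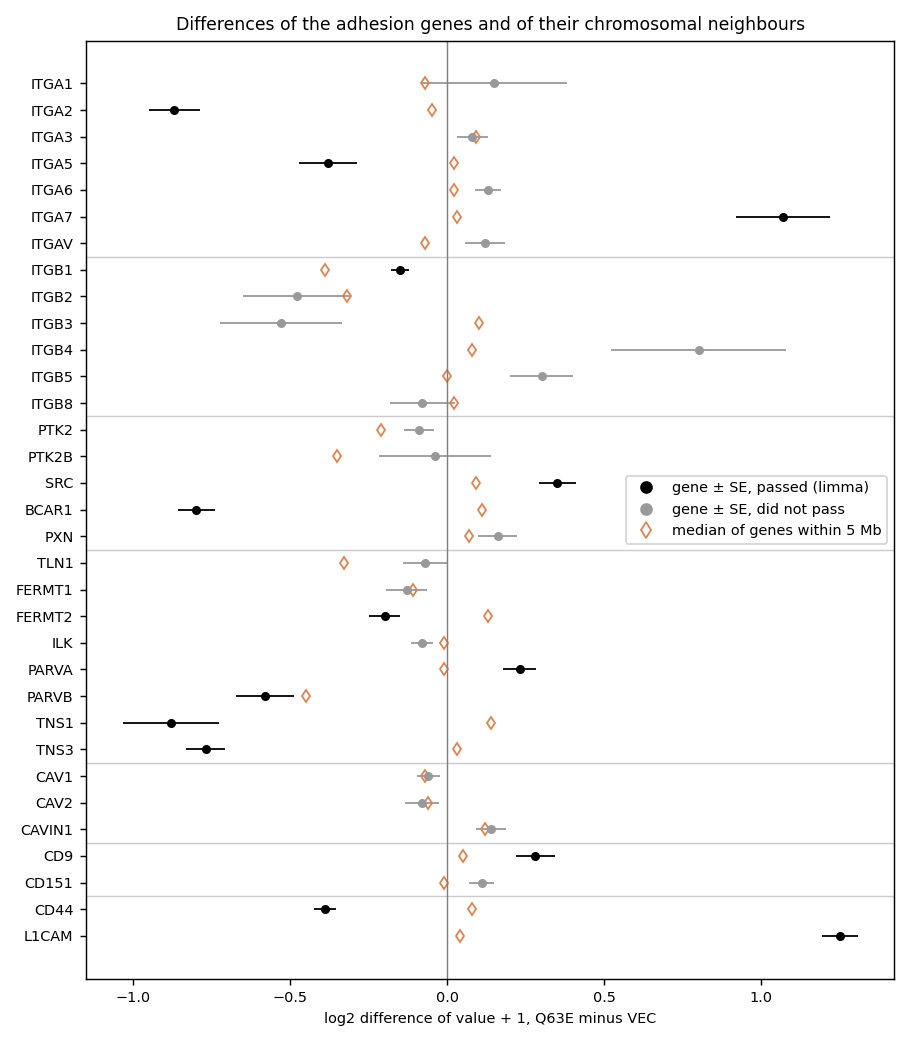
Log2 difference of value + 1 (Q63E minus VEC) with its SE for the 33 tested adhesion genes, in black where limma passed and grey where it did not, with the median difference of tested genes within 5 Mb as open diamonds. Neighbours lay near −0.39 for ITGB1 and −0.45 for PARVB, and at 0.04 for L1CAM.

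Of the 14 called genes, 8 passed under all 13 alternative settings: L1CAM, ITGA7 and SRC among the higher, and ITGA2, BCAR1, TNS1, TNS3 and CD44 among the lower. How many of all called genes passed every alternative was not counted. With the neighbours' median subtracted in each library, 6 of the 33 were higher and 7 lower. In that setting 1095 of all 13346 tested genes were higher and 1176 lower. PARVB was the call lost in that setting and ITGB1 the one that turned.

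**Figure D4:**
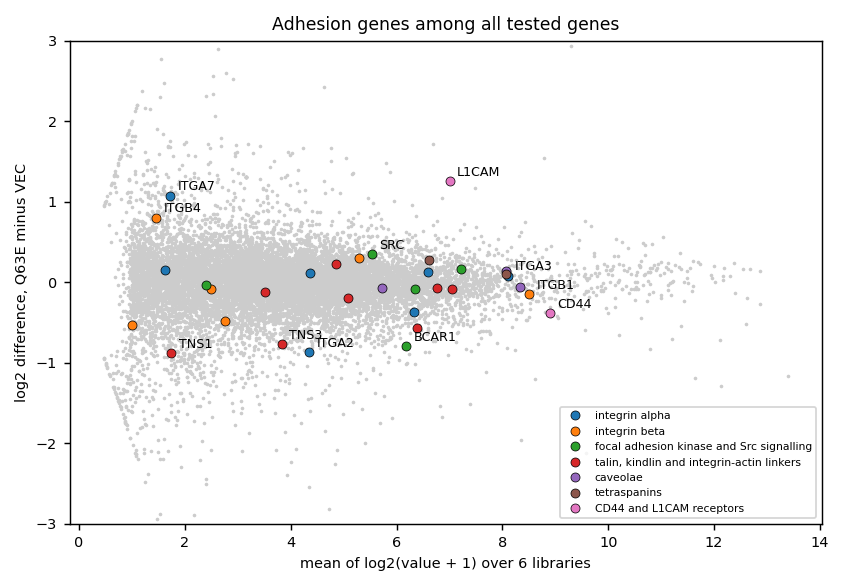
Log2 difference (Q63E minus VEC) against the mean of log2(value + 1) for all 13346 tested genes (grey) and the 33 adhesion genes (coloured by functional group). The axis is limited to differences of 3 in size, and 13 genes lie outside it; on this scale L1CAM at 1.25 was the highest adhesion gene and TNS1 at −0.88 the lowest.

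Further genes of the pathway were read from 8 lists of 113 genes, of which 81 were tested, with 20 higher and 20 lower (25.3% of all tested genes passed). Of these 40 calls, 23 passed under all 13 alternatives, and TSPAN9 and HYAL2 passed in none of the 6 fits that left out 1 library. Among 37 tested focal adhesion adaptors 9 rose and 6 fell, with a median log2 fold change of 0.06. LIMS2 (PINCH-2), which joins integrin-linked kinase and parvins, rose from 0.577 ± 0.130 to 3.27 ± 1.12 (limma adjusted p = 0.00674), and reached the minimum only through the Q63E libraries. TNS2, given above, was among the fallen adaptors.

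Of 14 tested tetraspanins and partners outside the set, 7 fell and 2 rose, with a median of −0.18 (14% of all tested genes were lower and 11.3% higher). Of the 7 falls, TSPAN9 passed in 0 and TSPAN4 in 2 of the 6 fits that left out 1 library, and both and TSPAN3 were lost with the replicate block. CD82, a tetraspanin known as a suppressor of metastasis, fell from 19.0 ± 2.62 to 8.71 ± 1.33 (log2 fold change −1.05, limma adjusted p = 0.00241). PTGFRN, a tetraspanin partner, fell from 10.5 ± 1.08 to 6.53 ± 0.594, and TSPAN15 rose from 5.77 ± 0.492 to 8.66 ± 1.19 (adjusted p = 0.00644 and 0.0202). The call of TSPAN15 was lost without VEC replicate 1 or 3, without Q63E replicate 2 or 3, with no filter on low values and after subtraction of its neighbours' median (0.0529).

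Of 5 tested genes on the hyaluronan and CD44 list 3 rose and 1 fell, where 11.3% of all tested genes were higher and 14% lower. Of the risen, HYAL2 (limma adjusted p = 0.0342) passed in none of the 6 fits that left out 1 library. With its neighbours' median subtracted, its log2 fold change was −0.02 (adjusted p = 0.929). The synthase HAS3 rose from 6.54 ± 1.34 to 19.2 ± 1.67 (log2 fold change 1.43, limma adjusted p = 0.000842), while the synthase HAS2 fell from 5.70 ± 0.291 to 2.62 ± 0.386 (−0.89, adjusted p = 0.00266). ESRP2, a splicing regulator of CD44, rose from 0.777 ± 0.164 to 2.66 ± 0.331 (adjusted p = 0.00431), reaching the minimum only through Q63E. Its paralog ESRP1 was under the minimum.

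Among 12 tested integrin ligands 4 rose and 3 fell, where 11.3% of all tested genes were higher and 14% lower. TNC (tenascin C) fell by 2.45 on the log2 scale, from 11.3 ± 1.13 to 1.27 ± 0.424 (limma adjusted p = 0.000227). FN1 (fibronectin) rose from 938 ± 31.2 to 1360 ± 113 and LAMA5, a laminin alpha chain, from 120 ± 8.88 to 200 ± 3.84 (adjusted p = 0.00211 and 0.000422).

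Of the L1 family and its cytoplasmic partners, EZR (ezrin, a membrane to actin linker) rose from 134 ± 6.08 to 166 ± 2.97 (limma adjusted p = 0.00344), and ANK2, an ankyrin, fell from 3.41 ± 0.312 to 1.58 ± 0.159 (0.00601). ANK2 lies on chromosome 4, where its neighbours had a median of −0.34, and after subtraction its adjusted p was 0.0694. Of 3 hemidesmosome partners DST rose and COL17A1, a transmembrane collagen, fell, where 25.3% of all tested genes passed. DST went from 36.7 ± 1.99 to 43.5 ± 1.55 and COL17A1 from 13.7 ± 0.666 to 10.2 ± 0.487 (limma adjusted p = 0.0218 and 0.00782). The rise of DST was lost without Q63E replicate 1 or 3, with the replicate block (0.0601) and after subtraction of its neighbours' median (0.17, adjusted p = 0.213). Of 4 further caveolar genes PACSIN2 fell from 52.8 ± 1.31 to 39.8 ± 0.433 (adjusted p = 0.000903); its neighbours on chromosome 22 had a median of −0.49, and after subtraction it turned to 0.11 and did not pass (0.134). Of 6 further integrin alpha chains, ITGAE alone was tested, at 31.9 ± 3.64 and 25.3 ± 5.29 (adjusted p = 0.166), and ITGA2B lay between 0.42 and 1.12.

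**Figure D5:**
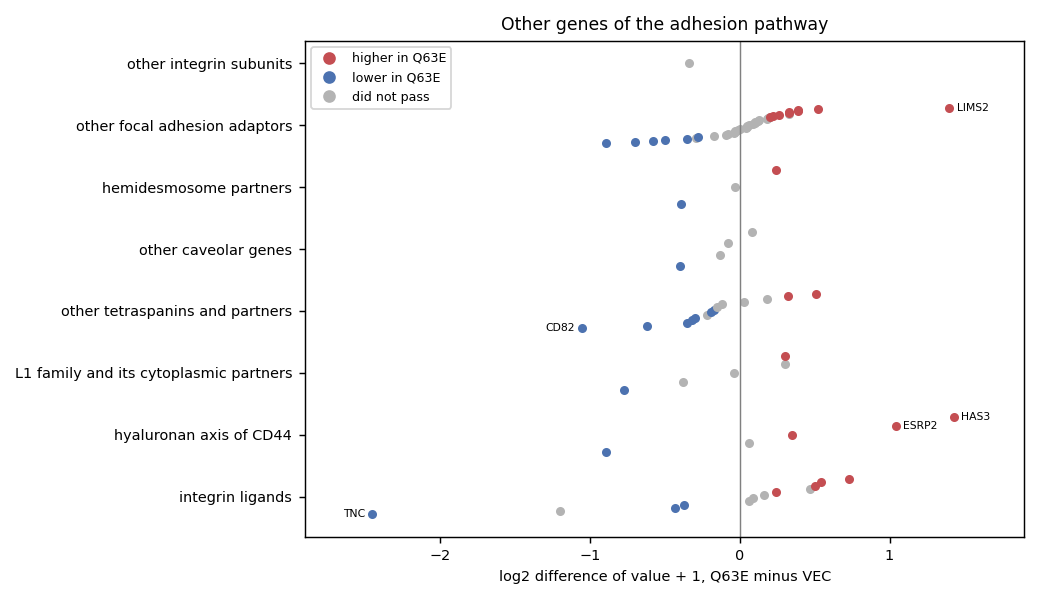
Log2 difference of value + 1 (Q63E minus VEC) for the 81 tested genes of 8 further pathway lists, 1 point per gene, coloured by the limma call. Names mark called genes at differences of 1 or more in size; CD82 lay at −1.05, HAS3 at 1.43 and TNC at −2.45.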

How the data were processed

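Total RNA from T24 cells was sequenced from TruSeq libraries, 3 VEC and 3 Q63E, per the labels' protocols. HISAT2 2.1.0, Bowtie2 and the build GRCh38.p10 are listed, without their roles, per the submitters' processing notes. For the counting program and annotation, names were not given in the sources used here. Each library's deposited table holds 58882 rows of values taken as FPKM, although neither headers nor labels name the unit. The 649 assembled loci without a gene name (0.274% to 0.511% of a library's sum) were left out. At best 23.6% to 24.3% of low values lay within 0.1 of a whole read, against 20% without steps, so counts were not recovered and depth is unknown. No interval or detection floor is given.

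The 13346 genes whose mean over 6 libraries reached 1 entered limma 3.58.1 (R 4.3.3, lmFit and trended eBayes) as log2(value + 1), with group as the single term. Two-sided p-values were adjusted over all of them (Benjamini-Hochberg, threshold 0.05). The steps were tested on simulated data. Symbols came from a gene table (57392 identifiers), coordinates from GENCODE release 29 on GRCh38. Alternatives changed the pseudocount, filter, scaling, variance trend, replicate block or libraries, or subtracted the median deviation of genes within 5 Mb. The members and lists were chosen with earlier results of these data known. L1CAM, ITGB1, PTK2, CD44 and every passing member are given by library, other tested members by mean and SD or by library, and members under the minimum by range or mean. Of each further list up to 3 passing genes with the largest change are named, or the highest genes where none passed (1 gene this rule names is not reported here); HYAL2, TSPAN3, TSPAN4, TSPAN9, ESRP1, CHL1, NRCAM and NFASC are list genes named after their values were seen.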

Additional observations from a re-analysis of the deposited data

How the results depend on the processing

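Over all tested genes, 1510 were higher and 1873 lower. With the replicate number as a replicate block 942 were higher and 1266 lower. On the TPM scale the balance turned, with 1823 higher and 1586 lower. With the neighbours' median subtracted 1095 were higher and 1176 lower. Leaving out 1 library gave 992 to 1138 higher (1000 without Q63E replicate 1 and 992 without replicate 3) and 1314 to 1483 lower. Of the adhesion genes 5 were higher, and 8 on the TPM scale, where ITGA6, ITGB5 and CD151 also passed and 8 were lower. With the replicate block 3 were higher, and without 1 library 3 to 5 (3 without Q63E replicate 2 and 3 without replicate 3); the lower ones numbered 9, and 7 with the block. Same-numbered libraries did not deviate together (r = −0.042, −0.009 and −0.025 across genes), and no library correlated best with its own number. A pairing by number limited to some genes was not tested.

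Directions turned under subtraction of the neighbours' median for ITGA3 (−0.052), ITGB1 (0.298), PTK2 (0.099), PTK2B (0.369) and TLN1 (0.272). Without 1 library, PTK2B ranged from −0.212 to 0.135 and turned without Q63E replicate 2, and TLN1 ranged from −0.117 to 0.006 and turned without VEC replicate 2. ITGB1 passed in both directions, and the other 4 in neither; the cause was not tested. Over 429 refits of single genes, 387 kept direction and side of the threshold, 27 lost the call, 8 gained it and 7 turned. The difference in the ITGB4 to ITGA6 ratio (0.0133) ranged from 0.00917 to 0.0179 without 1 library, a shift above the SD of Q63E and below that of VEC. Depth is unknown, so the counting error of low levels (ITGA7, ITGB3, ITGB4, TNS1) cannot be given.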

Other observations

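LAMA3, the alpha chain of laminin-332 and so a ligand of the alpha 3 and alpha 6 integrins, stood apart in a single library. It had 2.66, 2.9 and 27.83 in VEC and 2.54, 1.97 and 2.26 in Q63E, and did not pass in limma (log2 fold change −1.20, SE 0.772, adjusted p = 0.307). LAMB3, a chain partner, showed no such library, with 272.02, 257.36 and 275.73 in VEC and 287.22, 304.77 and 250.33 in Q63E, and did not pass (adjusted p = 0.593).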
